A study of Mus musculus with 20 samples.

Results

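Chromatin accessibility was described around 9 trophoblast lineage genes, Cdx2, Eomes, Elf5, Tfap2c, Tfap2a, Gata3, Hand1, Esx1 and Dlx3, in mouse embryonic stem (ES) cells. Every peak of the merged ATAC-seq list that overlapped the gene record of 1 of these genes or lay within 50000 bp of it was taken, which gave 137 of the 102373 listed peaks, around 9 of 21938 protein-coding genes. In ATAC-seq a transposase inserts adapters into DNA that is not wrapped up, so a peak marks a stretch that was open. The series held 20 ATAC-seq libraries, 2 replicates for each of 10 groups, all from ZHBTc4 cells. In this line a Tet-Off promoter drives Pou5f1, which encodes OCT4, so that doxycycline (dox) shuts its expression off. All libraries carried a lentiviral OCT4 with a SNAP tag, either SNAP-MD-OCT4, whose mitotic degron leads to its loss as cells pass from mitosis to G1, or SNAP-MD*-OCT4, whose degron is mutated, together with the reporter YPet-MD. The transgene was driven by the weak PGK promoter, which keeps OCT4 under its wild-type level, and each line was a pool of transduced cells sorted to a like SNAP signal rather than a clone. The 16 libraries behind the list came from cells kept in dox at 1 ug/ml for 40 h and sorted by DNA content and YPet-MD into early G1, late G1, S and SG2, which makes 4 phases for each of the constructs. The other 4 libraries were unsorted cells without dox and did not enter the list.

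The list gave only where each merged peak starts and ends. A region open in 1 library and a region open in all 16 therefore look alike, the constructs and phases cannot be compared, the depth is unknown, and no value below has a replicate error or a test. A value is set beside the same value over all protein-coding genes or all peaks where that was taken. Of 6 markers of ES cells, Pou5f1, Sox2, Klf4 and Zfp42 had a peak at the transcription start site (TSS), meaning at most 1000 bp from it. Nanog and Esrrb had none, with the nearest at 1481 and 4663 bp. Among all protein-coding genes 66.1% had a peak at the TSS, so the count of markers with one does not identify the cells. A peak is called proximal here when it lay within 1000 bp of any annotated transcript start and distal otherwise.

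The trophectoderm is the first epithelium of the embryo and the source of the placenta. OCT4 holds its program down in the inner cell mass, and ES cells that lose OCT4 turn towards trophoblast-like cells. Whether each of these genes was low in the cells used here was not tested, since the list holds no expression values. Those cells were kept in dox, with OCT4 under its wild-type level. For cells grown in dox, the paper reports the differentiation markers Dlx3, Eomes and Esx1 as lower with SNAP-MD*-OCT4 than with SNAP-MD-OCT4. These markers were measured after a longer time in dox than the libraries. Cdx2, a caudal-type homeobox factor, Eomes, a T-box factor, and Elf5, an ETS factor, maintain trophoblast stem cells. Tfap2c and Tfap2a encode the AP-2 factors AP-2γ and AP-2α, and Gata3 encodes a zinc finger factor that acts alongside Cdx2. Hand1, a basic helix-loop-helix factor, drives trophoblast giant cells, while the homeobox genes Esx1 and Dlx3 act later, in the labyrinth of the placenta.

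Most of the 9 genes lay in regions rich in peaks. Tfap2c had 26 listed peaks in its window, Tfap2a 20, Gata3 18, Hand1 17, Dlx3 16, Cdx2 13, Eomes 11, Elf5 10 and Esx1 6. The median of the 9 was 16 peaks, against 10 for all protein-coding genes, whose quartiles were 4 and 15. Hence 7 of the 9 genes were above the median gene, and 5 of 9 reached 15 peaks or more, as did 26.7% of all protein-coding genes. At the top of the order, 2.83% of protein-coding genes had at least as many peaks as Tfap2c and 10.0% at least as many as Tfap2a. At the bottom, 69.6% had at least as many as Esx1 and 50.7% at least as many as Elf5. Because genes differ in length, the counts were also taken per 100 kb of window. The density ran from 5.62 peaks at Esx1 and 7.18 at Elf5 to 16.3 at Tfap2a, 16.3 at Hand1 and 23.8 at Tfap2c, against a median of 6.97 over all protein-coding genes. Only 0.246% of protein-coding genes had a density as high as Tfap2c.

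**Figure D1:**
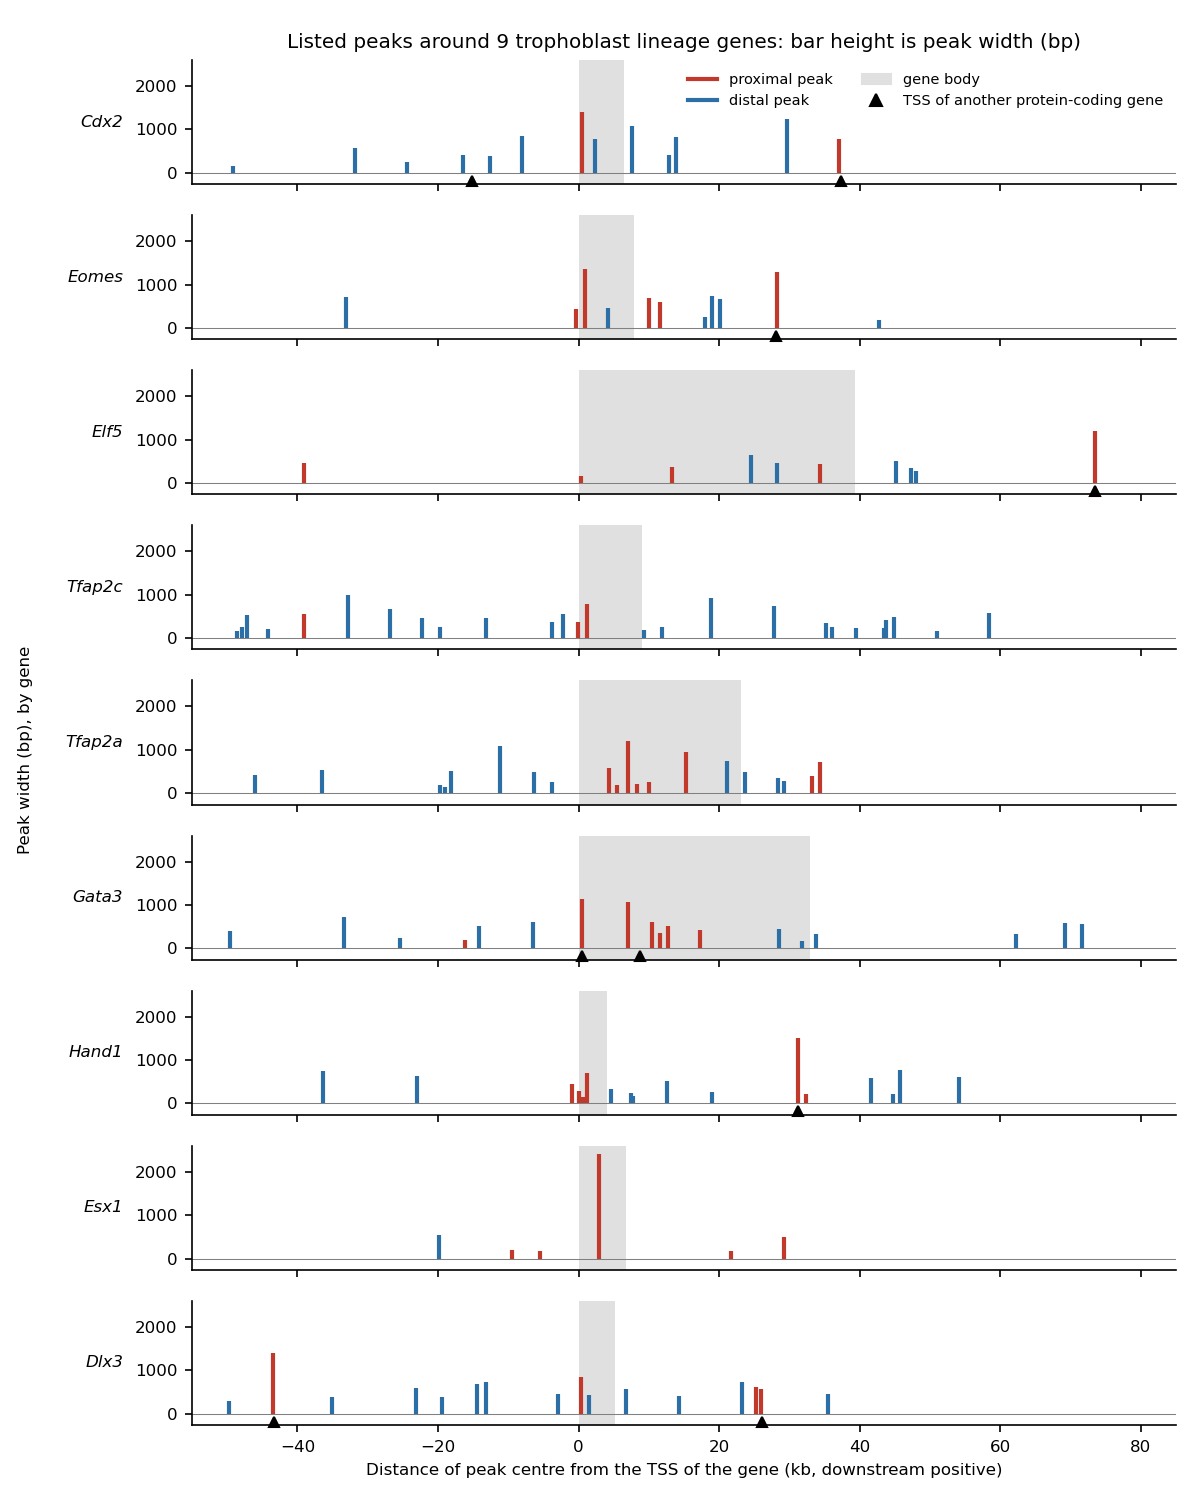
Peaks around the 9 genes. The x axis gives the distance of the peak centre from the TSS in kb with the direction of transcription to the right, and the bar height gives the peak width in bp. Peaks at Tfap2c (26) were spread over the whole window with no other protein-coding TSS in it, those at Tfap2a (20) left the TSS itself bare, and Esx1 (6) had the widest peak, of 2409 bp, inside the gene.

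A window can also collect the peaks of its neighbours. Here the TSS of a gene is the 5′ end of its record alone. Of the 137 peaks, 87 (63.5%) were nearer to the TSS of the member gene than to that of any other protein-coding gene. This held for 20 of 20 peaks at Tfap2a, 6 of 6 at Esx1 and 21 of 26 at Tfap2c. It held for 10 of 17 at Hand1, 6 of 11 at Eomes, 6 of 10 at Elf5, 7 of 16 at Dlx3, 5 of 13 at Cdx2 and 6 of 18 at Gata3. The same share was not taken over other genes. Tfap2c, Tfap2a and Esx1 had no other protein-coding TSS in their windows. Such genes were poorer in peaks as a rule, with a median of 6 over 3911 genes, against 8 for the 4495 genes with 1 neighbour and 11 for the 13532 genes with 2 or more. Among genes without a neighbour, 3.32% had as many peaks as Tfap2c and 7.59% as many as Tfap2a. The AP-2 genes were thus rich in peaks in windows without another protein-coding promoter. At Cdx2, Gata3 and Dlx3 most peaks had a neighbour's TSS closer by. At Gata3 this rests on the start chosen, since Gata3 has other annotated starts 11434, 14635 and 16362 bp downstream of its TSS. Several of its peaks lay closer to these than to the neighbour's TSS. Elf5 likewise has a start 37050 bp downstream that was closer to some peaks credited to its neighbour Cat.

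In all, 7 of the 9 genes had a peak at the TSS, as did 66.1% of all protein-coding genes. The peak covered the TSS itself at Cdx2, Tfap2c, Gata3, Hand1 and Dlx3, ended 79 bp before it at Eomes and began 239 bp after it at Elf5. The exceptions were Tfap2a, whose nearest peak was 3695 bp away, and Esx1, at 1679 bp. The share of TSS with a peak varied with CpG content over all genes, and the promoters of the 9 genes differed in it. The ratio of observed to expected CpG from 250 bp before to 50 bp after the TSS was 0.79 at Dlx3, 0.757 at Tfap2c, 0.72 at Cdx2, 0.56 at Hand1, 0.553 at Gata3, 0.549 at Eomes, 0.529 at Esx1, 0.515 at Tfap2a and 0.184 at Elf5. Of protein-coding genes with a ratio of 0.75 or more, 98.9% had a peak at the TSS, of those between 0.4 and 0.75 89.2%, and of those under 0.4 26.4%. Tfap2c and Dlx3 in the highest class both had one. In the middle class Cdx2, Eomes, Gata3 and Hand1 had one, and Tfap2a and Esx1 belonged to the minority without. Elf5, alone in the lowest class, had a peak where most genes of its class had none.

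**Figure D2:**
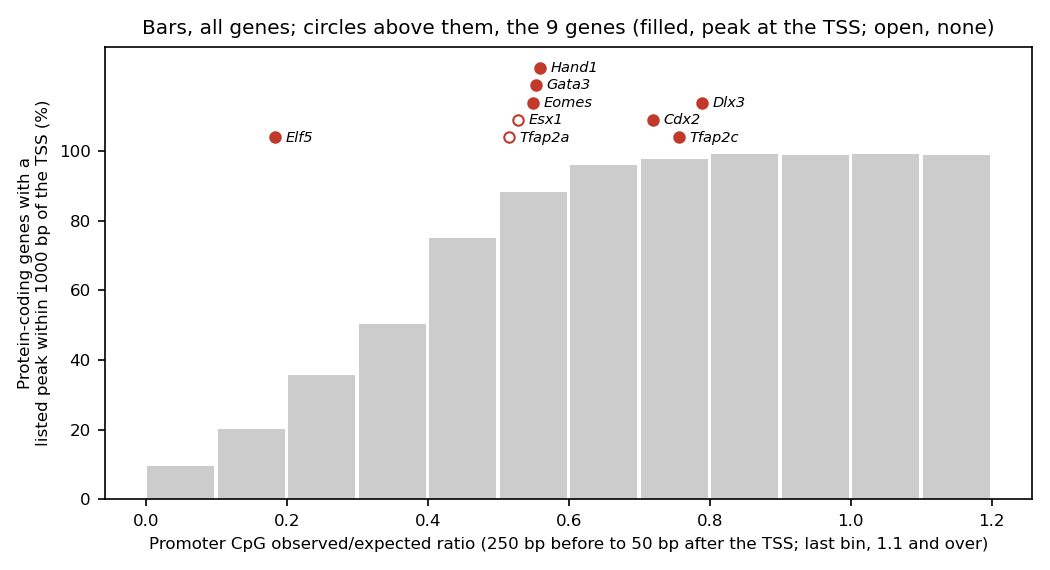
Peaks at the TSS by promoter CpG content. Bars give the percentage of all protein-coding genes with a peak at the TSS, by CpG ratio. Circles place the 9 genes by their own ratio, at arbitrary heights above the bars, and are filled where the gene had such a peak. Elf5, at 0.184, was filled among mostly bare genes, and the open circles of Tfap2a (0.515) and Esx1 (0.529) stood where most genes had a peak.

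Both exceptions had a peak at another annotated start. Tfap2a had 9 transcript starts, and 8 of them lay within 1000 bp of a peak, 4 of them inside one. Only the most upstream start, taken as the TSS of the gene, was bare, while a peak of 1194 bp lay 6435 bp and another of 585 bp lay 4038 bp downstream of it. At Esx1 the peak of 2409 bp covered both other starts, 1757 and 1912 bp downstream of the first. With any transcript start counted, 9 of the 9 genes had a peak, against 70.4% of all protein-coding genes. With 500 bp allowed in place of 1000 bp from the TSS the count was 7, against 63.94% of all protein-coding genes. With 2500 bp it was 8, against 70.47%. With peaks of at least 300 bp only it was 6, against 63.98%, since the peak of Elf5 was 156 bp wide.

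The sequences of 6 of the peaks nearest to the TSS are shown to let the differences among these promoters be seen. Each is up to 200 bases, free of annotated exons, from RefSeq GRCm38.p6, on the strand of the gene, with matches to any of 13 motifs (spelled out further on) in capitals. The first 3 are upstream of the TSS of Cdx2 (chr5:147307271-147307458, minus strand), Eomes (chr9:118477934-118478133, plus strand) and Hand1 (chr11:57832819-57832918, minus strand).
Cdx2 promoter: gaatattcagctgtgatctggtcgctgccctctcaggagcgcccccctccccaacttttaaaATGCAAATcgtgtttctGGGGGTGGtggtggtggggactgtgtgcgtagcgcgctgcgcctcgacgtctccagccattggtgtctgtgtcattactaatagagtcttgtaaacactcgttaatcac
Eomes promoter: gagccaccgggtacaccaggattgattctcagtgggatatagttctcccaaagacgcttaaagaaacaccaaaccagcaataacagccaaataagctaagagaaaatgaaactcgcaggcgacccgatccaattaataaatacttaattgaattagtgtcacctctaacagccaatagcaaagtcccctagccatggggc
Hand1 promoter: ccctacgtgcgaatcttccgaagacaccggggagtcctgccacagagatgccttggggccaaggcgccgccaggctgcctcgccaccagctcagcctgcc

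The capitals in the Cdx2 promoter are an OCT octamer on the strand of the gene, 119 to 126 bp upstream of the TSS, and a KLF match shortly after it. The Eomes and Hand1 stretches held no match. Outside the printed part, the same peaks held ETS and TEAD letters at Eomes and KLF letters at Hand1. The Hand1 stretch was 68.0% GC with 7 CpG in 100 bases, the Eomes stretch 44.0% GC with 5 CpG in 200 bases. The next 3 come from peaks whose exon-free stretch did not adjoin the TSS on its upstream side: Gata3 (chr2:9889012-9889211, minus strand, 823 to 1022 bp downstream of the TSS), Esx1 (chrX:137119371-137119570, minus strand, 2513 to 2712 bp downstream) and Tfap2a (chr13:40742071-40742270, minus strand, from -3894 to -3695 bp relative to the TSS).
Gata3 first peak: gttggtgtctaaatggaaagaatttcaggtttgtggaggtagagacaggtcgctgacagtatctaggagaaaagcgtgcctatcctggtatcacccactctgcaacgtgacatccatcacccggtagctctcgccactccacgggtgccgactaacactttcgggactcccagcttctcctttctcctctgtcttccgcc
Esx1 first peak: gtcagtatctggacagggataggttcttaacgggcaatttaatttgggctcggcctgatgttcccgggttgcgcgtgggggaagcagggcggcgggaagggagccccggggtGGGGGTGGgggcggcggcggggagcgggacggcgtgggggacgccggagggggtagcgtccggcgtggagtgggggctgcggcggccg
Tfap2a first peak: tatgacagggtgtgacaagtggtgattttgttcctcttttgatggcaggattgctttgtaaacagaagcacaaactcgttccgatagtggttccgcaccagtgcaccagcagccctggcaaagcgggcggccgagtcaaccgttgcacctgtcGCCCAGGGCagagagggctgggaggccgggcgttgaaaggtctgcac

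The Gata3 stretch held no match. The Tfap2a stretch held an AP-2 match, in front of a gene that itself encodes an AP-2 factor, and the Esx1 stretch held a KLF match in 72.0% GC. The peak nearest to the TSS of Elf5 (chr2:103411927-103412082) lay wholly in an exon and is not printed.

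Cdx2 lies on chromosome 5 from 147300805 to 147307270, on the minus strand. The peak over its TSS was 1408 bp wide and reached from 188 bp upstream into a coding exon. It was followed by a distal peak of 777 bp in the intron, 1943 bp from the TSS, and by 1 of 1090 bp past the end of the gene. The 6 upstream peaks were all nearer to the TSS of Urad, a gene of uric acid breakdown, and 3 of them lay in introns of Flt3, which encodes a receptor tyrosine kinase of blood progenitors. The 2 peaks farthest downstream belonged by distance to Pdx1, a homeobox gene of the pancreas, and included its promoter.

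Eomes is on chromosome 9 from 118478212 to 118486132, on the plus strand. A peak of 434 bp upstream of the TSS and a peak of 1360 bp over a coding exon stood apart, and the TSS lay in the gap between them. Upstream, the window was empty as far as a peak of 706 bp at 32787 bp, and the 32274 bp without a peak between these was the longest such gap at Eomes. Downstream there were 9 peaks, of which the last 5 were nearest to Golga4, a gene of the Golgi apparatus.

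Elf5 is on chromosome 2 from 103411688 to 103450989, on the plus strand. Its peak at the TSS was the narrowest of its 10, and 39026 bp without a peak lay before it. The body of the gene held 5 peaks in all, among them 1 of 365 bp over the alternative start 13140 bp downstream and 1 of 637 bp in an intron 24219 bp downstream. The widest, of 1189 bp, was at the TSS of the neighbouring Cat, which encodes catalase. Elf5 had 3.45% of its window under peaks, against 10.5% at Tfap2c.

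Tfap2c is on chromosome 2 from 172549593 to 172558622, on the plus strand. A narrow peak of 364 bp covered the TSS and 1 of 790 bp began 779 bp downstream, so that 5 of its 6 transcript starts were inside a peak. The other 24 peaks were outside the gene, 12 on either side, and 23 of the 26 were distal. The longest stretch without a peak was 8879 bp, the shortest such maximum among the 9 genes. Tfap2a, on chromosome 13 from 40715302 to 40738376 on the minus strand, had a different arrangement, with 7 of 20 peaks inside the gene and 8 of 20 proximal.

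Gata3 is on chromosome 2 from 9857078 to 9890034, on the minus strand. Its TSS is the most upstream of 6 annotated starts. The peak over this TSS was 1132 bp wide and also covered the TSS of the overlapping 9230102O04Rik, 494 bp away. Another start of Gata3, 11434 bp downstream, lay in a peak of 346 bp. The body of the gene held 8 peaks. By distance 11 of the 18 peaks were nearest to 4930412O13Rik, whose TSS lies inside Gata3, and 7 of those 11 were in the body of Gata3. Several of those 11 were nearer still to a later annotated start of Gata3 itself. The 3 peaks farthest upstream fell in Taf3, which encodes a subunit of TFIID, 1 of them in a UTR and 2 in introns.

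Hand1 is on chromosome 11 from 57828705 to 57832818, on the minus strand. Its promoter was broken up into 4 listed peaks within 1000 bp of the TSS, of 298, 159, 703 and 453 bp. Only 6 of the 21938 protein-coding genes, or 0.0274%, had 4 or more. With peaks at most 100 bp apart joined, an alternative added after the data were seen, Hand1 had 3 and 0.255% of genes had as many. The widest peak in its window, 1509 bp, was at Sap30l, a gene of the SIN3 histone deacetylase complex, to which 7 of the 17 peaks were nearest.

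Esx1 is on chromosome X from 137115397 to 137122083, on the minus strand. Protein-coding genes of the X chromosome had a median of 2 peaks over 948 genes, and 23.0% of them had at least the 6 of Esx1, so a count that was low among all genes was high for the X. Of the 6 peaks, 5 were proximal because they lay at transcript starts of other annotated genes or of Esx1. A peak of 178 bp there consisted to 93.2% of 32-base stretches that occur again elsewhere in the genome. Over the 137 peaks, 10 held more than 5% of such repeated stretches, which were not counted over all listed peaks.

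Dlx3 is on chromosome 11 from 95120119 to 95125296, on the plus strand. The TSS lay under a peak of 836 bp, with a distal peak of 435 bp in the intron 1288 bp downstream. Of its 16 peaks 5 were nearest to the paralogous Dlx4 and 4 to the integrin gene Itga3, whose promoter peak of 1388 bp was the widest. Of the distal peaks, 4 lay between 12816 and 22849 bp upstream of the TSS.

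Taken over all 9 genes, 45 of the 137 peaks (32.9%) were proximal and 92 distal, against 25.1% proximal among all peaks. By annotation 77 peaks were intergenic, 28 intronic, 12 in a coding exon, 12 in a UTR, 6 in an exon of a non-coding gene and 2 in an exon of a non-coding transcript. The places were not counted over all listed peaks, so these counts have no background. Distal peaks of the 9 genes had a median width of 455 bp, against 352 bp for all distal peaks. Proximal ones went the other way, with 568 bp against 815 bp. The distal peaks were also richer in GC, at a median of 51.4% against 48.6%, and 4 of them, 4.35%, were soft-masked as repeats over 50% of their length or more, against 14.1% of all distal peaks. Over both kinds the median width was 464 bp (95% interval of the median from order statistics 429 to 526) against 415 bp.

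To describe which factors could bind, 13 motifs were searched on both strands in the 200 bp around each peak centre. The letters were GCCNNNGGC for AP-2, ATGCAAAT for OCT, CATTGTT or CTTTGTT for SOX, GGGNGTGG for KLF, TCAAGGTCA for ESRRB, GCNATAAA for CDX, AGATAA for GATA, AGGTGTNA for T-box, AGGAAGT for ETS, TAATTA for homeobox, CATCTG for E-box and GGAATG for TEAD factors, and the composite OCT4::SOX2 with up to 2 mismatches. The octamer and the SOX core are parts of the composite, so those searches overlap. A match is a likeness of letters and not a bound site. At least 1 motif was present in 86 of the 137 peaks (62.8%), against 60.3% of all peaks.

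KLF matches were more frequent than over the list as a whole. They were in 27 of the 137 peaks, or 19.7% (95% Wilson interval 13.9 to 27.2%), against 12.4% of all peaks, and they numbered 6 at Tfap2c, 5 at Dlx3, 4 at Hand1 and 1 to 3 at each of the other 6 genes. Among distal peaks the share was 20.7% (95% Wilson interval 13.6 to 30.0%) against 12.1%. Among proximal peaks it was 17.8% (9.29 to 31.3%) against 13.2%, a share that this interval contained. In whole peaks it was 35.9% against 21.4% for distal ones, but 35.6% against 39.3% for proximal ones. The KLF letters are rich in G, and the higher GC content of these distal peaks moves with this share; its part in it was not tested. Matches for TEAD, the factors through which Hippo signaling acts on Cdx2 and Gata3, were in 23 peaks, 16.8% against 13.7%, with 6 of them at Dlx3. AP-2 matches were in 16 peaks, 11.7% against 11.4%. When whole peaks were searched, 26.1% of the distal peaks of the 9 genes and 16.6% of all distal peaks held one, while among proximal peaks it was 28.9% against 45.1%. Whole peaks differ in length. By median width the distal peaks of the 9 genes were wider than all distal peaks, and the proximal ones narrower. In the equal windows of 200 bp, AP-2 shares were 9.78% against 9.03% for distal peaks and 15.6% against 18.5% for proximal ones. The part of length in the whole-peak shares, those of KLF included, was not tested. The AP-2 genes had 8 of the 16, 4 at Tfap2c and 4 at Tfap2a. The intervals take each peak as independent, hold counting error alone and were not adjusted for the search of 13 motifs. With proximal and distal peaks pooled, they contained the share over all peaks for every motif searched except KLF. Among proximal peaks alone, TEAD matches were in 8 of 45, or 17.8% (95% Wilson interval 9.29 to 31.3%), against 8.91% of all proximal peaks. At the peak of 156 bp near the TSS of Elf5, which is 1 of the 8, the match lay in the 200 bp window but outside the peak. In whole proximal peaks the TEAD share was 33.3% against 31.4%. Among distal peaks TEAD matches were in 15 of 92 central windows, or 16.3% against 15.3%.

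Of the other families to which the encoded factors belong, GATA letters were in 6 peaks (4.38% against 8.30%) and none of these was in the window of Gata3. T-box letters were in 3 peaks (2.19% against 2.63%), none at Eomes, and CDX letters in 2 (1.46% against 1.65%), both at Hand1. Homeobox letters were in 1 peak, at Tfap2a (0.73% against 3.58%). SOX letters, of a family that none of the 9 genes encodes, were in 12 peaks (8.76% against 10.3%), with 5 of the 12 at Gata3. E-box letters were in 17 (12.4% against 14.1%) and ETS letters in 6 (4.38% against 6.19%).

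**Figure D3:**
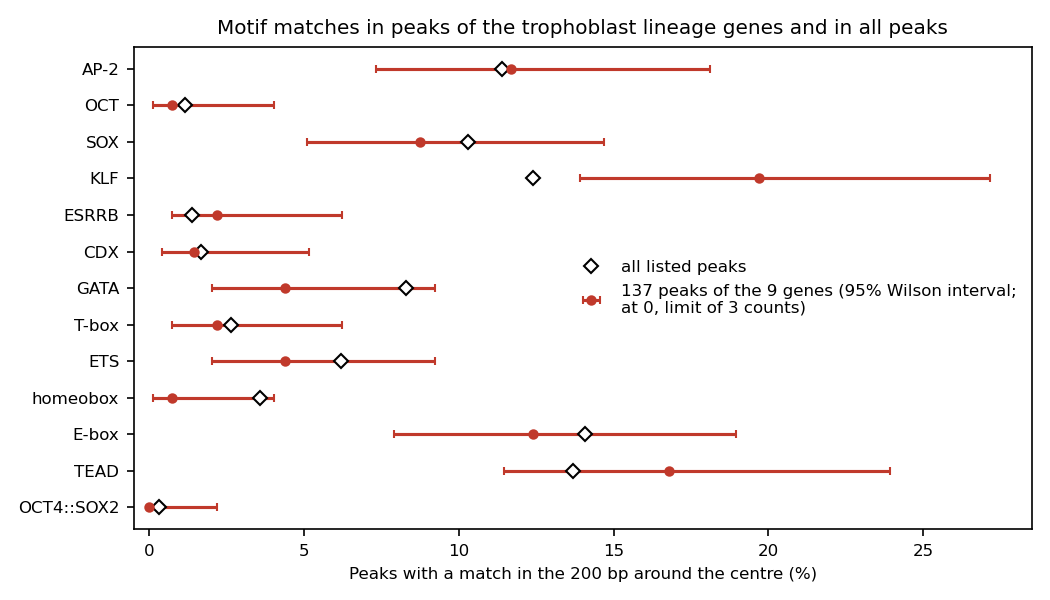
Percentage of peaks with a motif match in the 200 bp around the centre, for the 137 peaks of the 9 genes (red points with 95% Wilson intervals) and for all listed peaks (diamonds). KLF, at 19.7% against 12.4%, is the motif whose interval lies clear of the diamond, with no adjustment for the 13 motifs shown. OCT4::SOX2 sits at 0, with its bar drawn to the limit of 2.19% that a count of 0 allows.

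The composite OCT4::SOX2 motif, on which the pair of factors binds together, was found in 0 of the 137 peaks, which allows a share of up to 2.19%, taken as 3 counts of 137. In all peaks it was found in 0.325% of the central windows and in 0.677% of whole peaks. At the latter share 0.927 matches would fall in 137 peaks, so a count of 0 cannot be told apart from it at this number. The nearest approach in a whole peak had 3 mismatches. OCT octamers on their own were within 3 of the 137 whole peaks (2.19% against 2.56%), at Cdx2 and Gata3. These were chosen for printing after their positions had been seen. At Cdx2 1 was in the promoter, shown above. Another peak of 565 bp in an intron of Flt3 (chr5:147338855-147339419), 31585 bp upstream of Cdx2 and nearest to Urad, had 2 octamers in opposite orientation with 128 bp between them. The third was at Gata3, in the intron of Taf3. They are given on the plus strand with the octamers in capitals, Cdx2 from chr5:147339100-147339303 and Gata3 from chr2:9923168-9923235.
Cdx2 distal peak: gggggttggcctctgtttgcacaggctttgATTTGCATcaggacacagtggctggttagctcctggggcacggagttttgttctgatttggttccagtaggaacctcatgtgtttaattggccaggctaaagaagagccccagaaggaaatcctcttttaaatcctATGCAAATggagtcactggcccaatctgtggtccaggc
Gata3 distal peak: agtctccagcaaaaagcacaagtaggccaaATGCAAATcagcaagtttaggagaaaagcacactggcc

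ESRRB, a nuclear receptor of naive ES cells, had exact matches in 3 central windows (2.19% against 1.36%) and 6 whole peaks (4.38% against 2.82%), 2 each at Eomes, Tfap2c and Hand1. Those closest to a peak centre outside exons, 11 bp from it at Tfap2c (chr2:172594465-172594533, minus strand) and 4 bp from it at Hand1 (chr11:57813813-57813881, plus strand), are shown with the match in capitals, and were likewise picked after the search.
Tfap2c distal peak: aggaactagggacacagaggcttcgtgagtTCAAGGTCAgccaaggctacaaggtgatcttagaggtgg
Hand1 distal peak: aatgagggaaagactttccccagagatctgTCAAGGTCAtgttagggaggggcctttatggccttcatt

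The peak with the most kinds of motif in its centre was the intronic peak of Elf5 at 24219 bp from the TSS (chr2:103435907-103436543). Its central 200 bases (chr2:103436125-103436324, plus strand) held TEAD, KLF, GATA and T-box letters, in capitals in this order, with a second KLF match next to the T-box match. It is printed as the only peak of the 137 with 4 kinds.
Elf5 intronic peak: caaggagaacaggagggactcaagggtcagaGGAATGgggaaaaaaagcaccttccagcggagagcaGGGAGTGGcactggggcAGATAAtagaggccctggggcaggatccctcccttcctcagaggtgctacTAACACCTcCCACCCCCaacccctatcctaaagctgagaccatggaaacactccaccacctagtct

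Other lists of genes were set beside the 9. Regulators of trophoblast outside the 9 (Tead4, Fgfr2, Yap1, Id2, Msx2, Sox21, Wnt7b, Ets2) had a median of 18.5 peaks, and 8 of 8 had a peak at the TSS. Per 100 kb their median was 9.76. Fgfr2, whose record is very long, had the most peaks, 145, at a density of 4.74. Genes of the differentiated placenta had a median of 9 peaks, with 5 of 9 having a peak at the TSS. Gcm1, which directs syncytiotrophoblast formation, and Phlda2, an imprinted restrainer of placental growth, had 16 each, while Prl3d1, a placental lactogen, and Synb, a syncytin, had 1 each and Tpbpa, a spongiotrophoblast marker, had 0. Those 3 and the X-linked Plac1, with 8 peaks, were without a peak at the TSS. The median CpG ratio of this list was 0.237, against 0.553 for the 9 genes. Of the 4 genes of trophectoderm epithelium, Cdh3, Krt8 and Krt18 had a peak at the TSS and the nearest to Krt7 was at 1018 bp. Their median was 15.5 peaks. The windows of Krt8 and Krt18 overlap, so that peaks in the shared part count for both genes.

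The endoderm and mesoderm lists had lower medians than the 9 genes, as did the differentiated placenta. Endoderm genes had a median of 8, from 2 at Sox7 to 16 at Hnf4a, and 7 of 9 had a peak at the TSS, Gata4 and Dab2 being without. Mesoderm and primitive streak genes had a median of 9, from 5 at Mixl1 to 18 at Tbx6, and 9 of 9 had one. Naive pluripotency genes had a median of 19, from 7 at Klf4 to 29 at Esrrb, and 10 of 12 had one. Per 100 kb the medians were 13.5 for the 9 trophoblast lineage genes, 9.76 for the other trophoblast regulators and 13.8 for trophectoderm epithelium. They were 8.79 for the differentiated placenta, 6.58 for endoderm, 8.86 for mesoderm and 16.8 for naive pluripotency. The ranges of all these lists overlapped, and the differences between them were not tested.

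**Figure D4:**
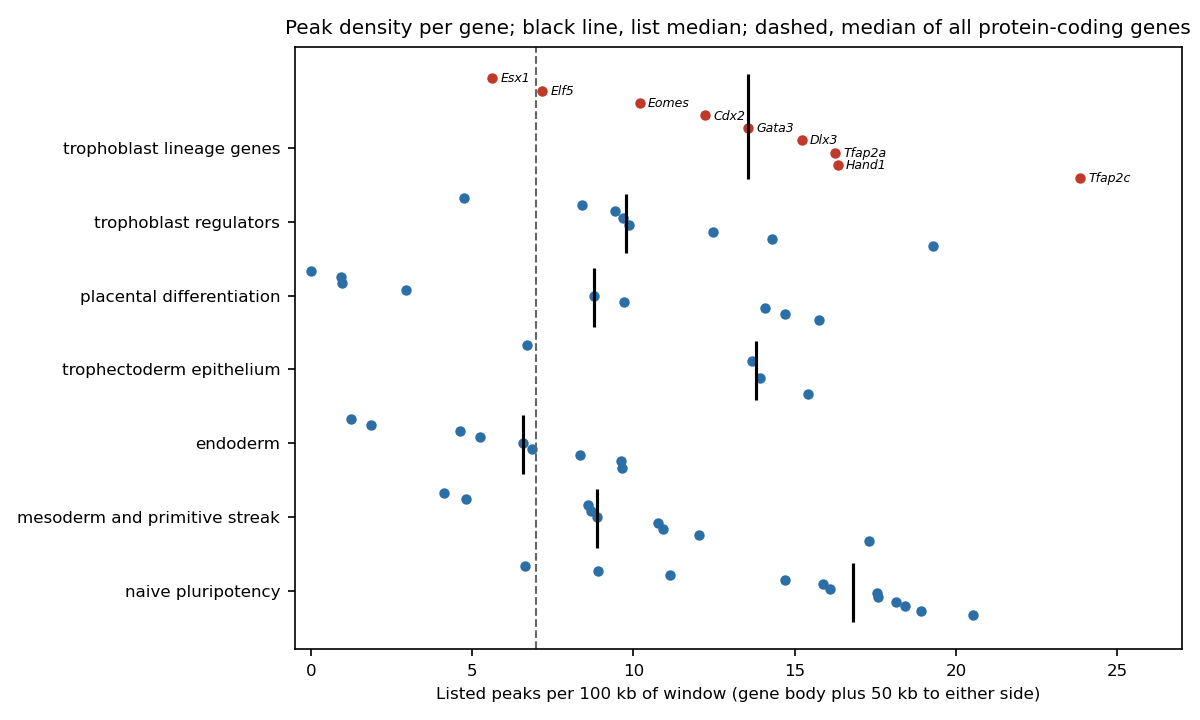
Listed peaks per 100 kb of window for each gene (points), by list, with the median of each list (black line) and of all protein-coding genes (dashed line, 6.97). The 9 genes, in red, reached from 5.62 at Esx1 to 23.8 at Tfap2c. Their median of 13.5 lay between those of the trophoblast regulators (9.76) and the trophectoderm epithelium (13.8). The mesoderm list had 8.86 and the naive pluripotency list 16.8.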

How the data were processed

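ATAC-seq peaks were analysed as deposited by the authors. Paired reads had been aligned to GRCm38 with STAR 2.6.1c, cleared of duplicates with Picard and restricted to the autosomes, X and Y, and peaks had been called with MACS 2.1.1.20160309 and merged over the 16 dox-treated libraries with BEDTools. The list has 3 columns and no score. A removal of peaks over 5 kb is described in the methods, yet 7 peaks over 5000 bp are in the list, none of them among the 137. Whether input and blacklisted regions were removed was not tested. Because no column holds a value per library, the comparison of constructs within each phase that the study made was neither planned nor run here.

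Genes and transcript starts were taken from GENCODE M21, with the 5′ end of the gene record as the TSS, and sequence from RefSeq GRCm38.p6, the same build. Peaks were counted in windows of 50000 bp beyond the gene, and motifs as exact letters in the central 200 bp. The counting and motif functions were tested on simulated data. The genes, the lists and the motifs were chosen with earlier results of these data known. Named are the 9 genes with the nearest, widest and nearest distal peaks, their protein-coding neighbours, and of the other lists the genes with the most and fewest peaks and those without a peak at the TSS. The promoter sequences of Tfap2c and Dlx3 are not reported here. Alternatives changed the window, peak width, joining, masking, TSS distance and motif window. Scripts ran under Python 3.11.15 with pandas 2.3.3 and numpy 2.4.6, intervals came from scipy 1.17.1, and plots from matplotlib 3.10.9.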

Additional observations from a re-analysis of the deposited data

How the results depend on the processing

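No paired analysis was possible because merged coordinates carry nothing that belongs to a single replicate, and for the same reason no replicate could be left out. With 20000 bp to either side of the gene the 9 genes had a median of 9 peaks (89 in all) against 5 for all protein-coding genes, and Tfap2a, with 18, took the first place from Tfap2c, with 10; the shorter window itself lowers the counts. With peaks nearest to the member's TSS only, the median was 6 (87 in all), and Cdx2, with 5, took the last place from Esx1, with 6. Over the other alternatives of the count (100000 bp, the TSS in place of the gene, peaks of at least 300 bp, joining within 100 bp, masked peaks left out) the median ran from 11 to 23, Tfap2c stayed highest and Esx1 lowest, and 6 to 8 of the 9 genes exceeded the median gene. For motifs, KLF, ESRRB and TEAD were above the share of all peaks in all 3 settings (central 200 bp, whole peak, peaks of at least 300 bp), AP-2 in 2 of 3, SOX, CDX, T-box and ETS in 1 of 3, and OCT, GATA, homeobox and E-box in 0 of 3. OCT4::SOX2 was found in 0 peaks in all 5 of its settings. Depth is unknown, so regions that were open but not called cannot be counted, and all intervals cover counting error only.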
